A study of Bos taurus with 8 samples.

Results

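The miR-148 family of microRNAs (miRNAs) was followed in the mammary gland of dairy and beef heifers through its 3 members on a bovine array: bta-miR-148a, bta-miR-148b and bta-miR-152. They were picked by name from the 763 bovine miRNAs of the array, and their 6 probes, 2 per member, are 6 of its 1657 probes. Gland tissue was taken from 8 heifers that were not pregnant: 4 Holstein-Friesian, a dairy breed, and 4 Limousin, a beef breed. The characteristics give their age as 20 months and the protocol as 2 years. RNA of each heifer was hybridised to a separate one-colour array, and the comparison asks how the miRNA content of the gland differs between a milk and a meat breed. No treatment or genetic change was named for either breed. The samples are whole gland tissue, so fewer cells of a type and less RNA per cell cannot be told apart.

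A miRNA is a short RNA that guides Argonaute proteins to messenger RNAs, mainly through the bases near its 5′ end, called the seed. The members of the miR-148 family share a seed, and so share many predicted targets, and DNMT1, the enzyme that keeps DNA methylation through cell division, is their best known target. In dairy cow mammary epithelial cells miR-152 has been described as a repressor of DNMT1, and miR-148a is one of the most abundant miRNAs of bovine and human milk. In liver of mice and in human cells miR-148a represses the low-density lipoprotein receptor.

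The array probes are shown because they define what each signal can and cannot tell apart within the family. A probe is complementary to the 3′ end of its miRNA, or to more of it, and the array annotation gives its place in build UMD 3.1 as a span that is 1 base shorter than the probe, with no strand. Letters are in lower case, with capitals at the positions where the longest probes of the 3 members differ.
bta-miR-148a probe of 20 bases (chr4:70414297-70414315): AcAaagttctgtAGtgcact
bta-miR-148a probe of 19 bases (chr4:70414298-70414315): AcAaagttctgtAGtgcac
bta-miR-148b probe of 19 bases (chr5:25849821-25849838): AcAaagttctgtGAtgcac
bta-miR-148b probe of 18 bases (chr5:25849822-25849838): AcAaagttctgtGAtgca
bta-miR-152 probe of 16 bases (chr19:39081224-39081238): CcCaagttctgtCAtg
bta-miR-152 probe of 15 bases (chr19:39081225-39081238): CcCaagttctgtCAt
Counted from 1 at the probe's 5′ end, the miR-148b probe differs from the miR-148a probe by A13G and G14A over 19 bases. The miR-152 probe differs from the miR-148a probe by A1C, A3C, A13C and G14A over 16 bases, and from the miR-148b probe by A1C, A3C and G13C. Within each member the shorter probe lacks only the last base of the longer one.

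The stretches of RNA that the longest probes pair with, read as reverse complements with the same differing positions in capitals, show the family's common core.
Target of the miR-148a probe: agugcaCUacagaacuuUgU
Target of the miR-148b probe: gugcaUCacagaacuuUgU
Target of the miR-152 probe: caUGacagaacuuGgG
Positions 4 to 12 of the probes, aagttctgt, were identical in 6 of 6 family probes and occurred in 0 of the other 1651 probes. The longest run that a miR-148a or miR-148b probe shared with a probe of a miRNA outside the family was 9 bases, and that of a miR-152 probe was 7 bases. Cross-hybridisation between members was not measured.

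The 3 genes lie on different chromosomes. In RefSeq's ARS-UCD2.0 annotation, a newer build from which only names and neighbours were taken, MIR148B lies within COPZ1 and MIR152 within COPZ2. These host genes encode related zeta subunits of the COPI vesicle coat. MIR148A lies in no protein-coding gene there, and its nearest neighbours are NFE2L3 and NPVF.

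None of the family passed the test between breeds. A probe was called detected where over 50% of its spots stood well above background. Signals were scaled to the 75th percentile that each array had over probes detected on every array, and are given as log2 values. Of 270 miRNAs tested, those with a full set of 4 detected arrays in either breed, limma with Benjamini-Hochberg adjustment at 0.05 called 41.9%. Those higher in Limousin were 13.7% of the 270 and those lower 28.1%. Of the 3 members 0 passed, and 0 had an unadjusted p under 0.05. However, miR-152 was detected on 1 of 4 Holstein-Friesian arrays and entered the test only through Limousin, so its result is a description. Levels of all 3 members overlapped between breeds, and among the tested miRNAs 36.7% showed no such overlap.

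Without scaling, each member was brighter on Limousin replicates 1, 2 and 4 than on every Holstein-Friesian array, and these arrays were brighter as a whole. The 75th percentile used for scaling was 631, 557, 939 and 619 intensity units on Holstein-Friesian arrays 1 to 4 and 1177, 1579, 943 and 1245 on Limousin arrays 1 to 4. The median difference over all tested miRNAs was 0.78 on the log2 scale without scaling and -0.07 with it (Limousin minus Holstein-Friesian, as for every difference here). The breeds also lie in different position indices of the 1 slide, so position and breed cannot be told apart.

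**Figure D1:**
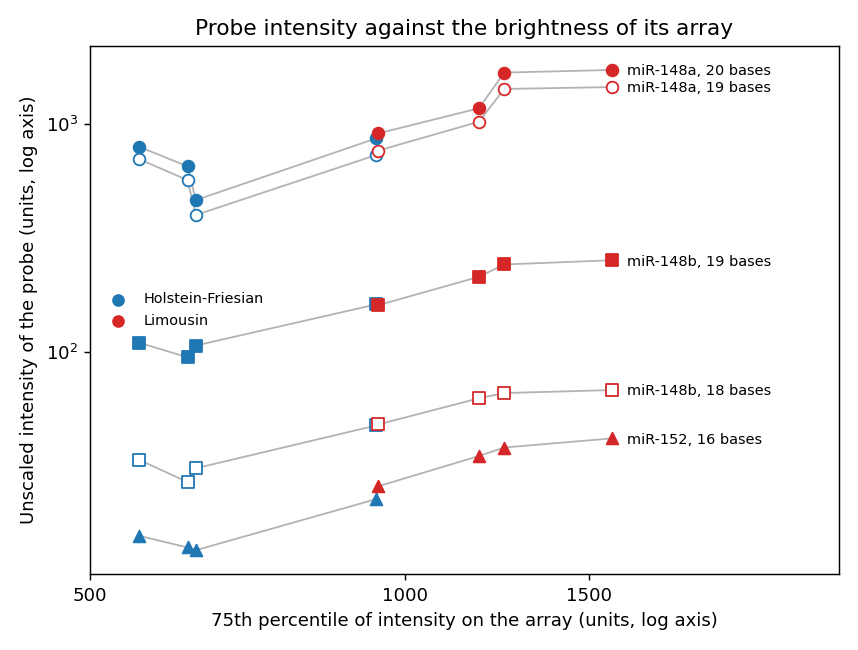
Unscaled intensity of the family's probes (vertical axis, log scale) against the array's 75th percentile of intensity (horizontal axis, log scale), 1 point per array and probe, with filled points for the longer and open points for the shorter probe. The replicate 3 arrays of the breeds, with percentiles of 939 and 943, lie next to each other for miR-148a, miR-148b and miR-152.

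miR-148a was the member with the widest spread among animals. Before scaling, its 20-base probe read 465, 796, 869 and 654 intensity units in Holstein-Friesian heifers 1 to 4 and 1177, 1736, 913 and 1690 in Limousin heifers 1 to 4. After scaling, its log2 levels were 9.47, 10.42, 9.80 and 9.99 in Holstein-Friesian and 9.91, 10.05, 9.86 and 10.35 in Limousin. The lowest and the highest animal were both Holstein-Friesian, and all 4 Limousin levels lay between them. The means were 9.92 ± 0.40 (SD, n = 4) in Holstein-Friesian and 10.04 ± 0.22 (SD, n = 4) in Limousin. The difference was 0.12 (SE 0.20; 95% confidence interval -0.32 to 0.56; limma adjusted p = 0.654). On the linear scale the Limousin level was 1.09 times the Holstein-Friesian level, with an interval from 0.802 to 1.48. Without Holstein-Friesian replicate 1 the difference was -0.03.

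miR-148b, which differs from miR-148a at 2 of the bases its probe reads, was the steadiest member. Its 19-base probe read 107, 110, 162 and 94.7 intensity units before scaling in Holstein-Friesian heifers 1 to 4 and 214, 253, 160 and 242 in Limousin heifers 1 to 4. The scaled log2 levels were 7.34, 7.56, 7.37 and 7.20 in Holstein-Friesian and 7.45, 7.27, 7.35 and 7.55 in Limousin. The breeds covered nearly the same range, with the highest and the lowest animal both Holstein-Friesian. The means were 7.37 ± 0.15 (SD, n = 4) and 7.40 ± 0.12 (SD, n = 4), which gives a difference of 0.03 (SE 0.12; 95% confidence interval -0.23 to 0.30; limma adjusted p = 0.843). The Limousin level was 1.02 times the Holstein-Friesian level, with an interval from 0.852 to 1.23.

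miR-152, the dimmest member, lay close to the detection limit. Its 16-base probe read 13.4, 15.5, 22.6 and 13.8 intensity units before scaling in Holstein-Friesian heifers 1 to 4 and 34.9, 41.7, 25.7 and 38.0 in Limousin heifers 1 to 4. The share of its spots well above background was 13.3%, 26.7%, 73.3% and 23.3% in Holstein-Friesian and 100%, 100%, 96.7% and 100% in Limousin. It was therefore detected on 1 of 4 Holstein-Friesian arrays, replicate 3, the brightest of that breed, and on 4 of 4 Limousin arrays.

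The scaled log2 levels of miR-152 were 4.36, 4.74, 4.53 and 4.42 in Holstein-Friesian and 4.83, 4.67, 4.71 and 4.87 in Limousin. Holstein-Friesian replicate 2 lay above Limousin replicates 2 and 3, and the other 3 Holstein-Friesian animals lay below every Limousin animal. The means were 4.51 ± 0.17 (SD, n = 4) and 4.77 ± 0.10 (SD, n = 4), a difference of 0.26 (SE 0.12; 95% confidence interval -0.01 to 0.52; limma adjusted p = 0.112, unadjusted p = 0.0574). It entered the test only through its detection in Limousin, and 3 of the 4 Holstein-Friesian levels were not above the detection limit, so no fold is given and its values under every setting are a description. Leaving out each array in turn gave differences from 0.21 to 0.33, the largest without Holstein-Friesian replicate 2, the highest animal of that breed. For comparison, the lowest scaled log2 level of any detected probe was 4.75, 4.91, 4.33 and 4.68 on the Holstein-Friesian arrays and 3.90, 3.39, 4.08 and 3.70 on the Limousin arrays.

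**Figure D2:**
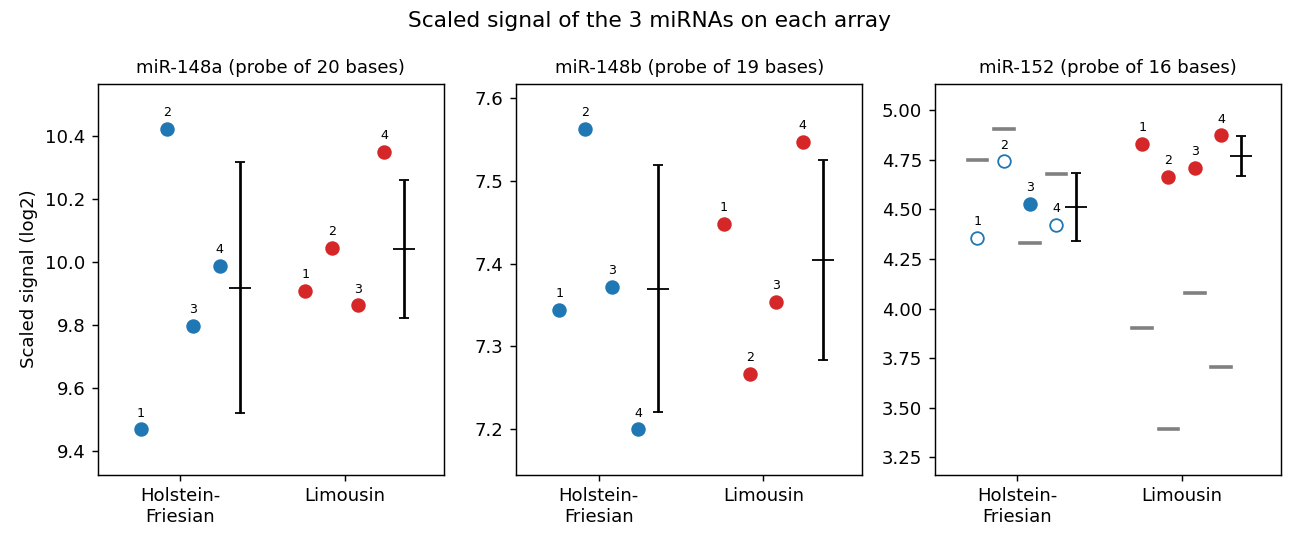
Scaled log2 level of miR-148a, miR-148b and miR-152 (vertical axes) in each of 4 Holstein-Friesian and 4 Limousin heifers, with bars for mean ± SD, open circles where the probe was not detected, and grey dashes at the lowest detected level of each array in the miR-152 panel. The breeds overlap in all 3 panels, and the open circles are Holstein-Friesian replicates 1, 2 and 4 for miR-152.

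The call for miR-152 changed with the background correction and with the scaling, among other choices. All its values here are a description. With levels floored at the lowest detected probe of each array, its difference was 0.05 (limma adjusted p = 0.739) and was not called. With normexp correction its difference was -0.48 (limma adjusted p = 0.0111) and with no background correction -0.45 (limma adjusted p = 0.0136), lower in Limousin and called, while the median of all tested miRNAs moved to -0.38 and -0.36. The mean signal of its spots with background left in was 62.1 to 73.0 intensity units in Holstein-Friesian and 74.6 to 92.4 in Limousin, so that most of the raw signal on each array was background. With the 75th percentile taken over all probes the difference was 0.59 (limma adjusted p = 0.00579), and with quantile normalization 0.61 (limma adjusted p = 0.0160), both called as higher. Relative to the median of all tested miRNAs, it was 0.33 in the main setting and under each percentile, spike-in or median scaling, 0.52 under quantile normalization and -0.09 under both changed backgrounds.

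The authors' deposited table of log2 values, which is made from Agilent's total signal per miRNA, put miR-152 at -2.58 to -2.05 in Holstein-Friesian and -1.91 to -1.73 in Limousin. These ranges do not overlap, and limma on that table called the difference of 0.53 (adjusted p = 0.0124). The same fit called 109 of the 270 miRNAs, 74.3% of them as higher in Limousin. How many miRNAs lacked overlap in that table was not counted, and the miR-152 values are a description. The median over the same 270 miRNAs was 0.25 in that table and 0.26 with the 75th percentile taken over all probes. The arrays of that table have nearly the same 75th percentile, so its calls are not independent of that choice of scaling. For miR-148a the table held 3.43 to 4.54 and 4.16 to 4.63, and for miR-148b 0.69 to 1.15 and 1.04 to 1.29, with overlap in both, and neither was called.

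**Figure D3:**
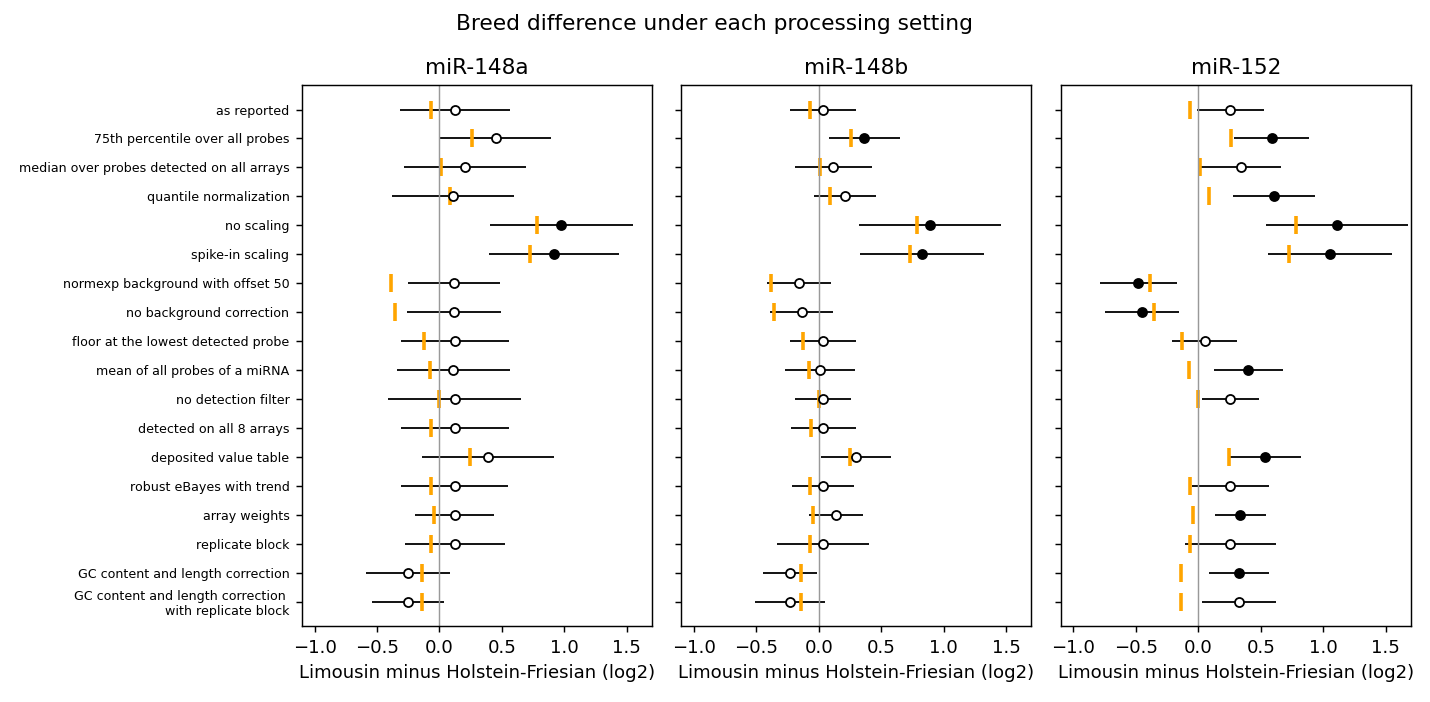
Difference Limousin minus Holstein-Friesian on the log2 scale (horizontal axis) of each member under each processing setting (vertical axis), with bars for 95% confidence intervals, filled points where the limma adjusted p was under 0.05 and orange ticks at the median of all tested miRNAs. miR-152 lies to the right of the tick at 0.33 in the main setting and to the left at -0.09 under normexp and under no background correction.

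The sign for miR-148a and miR-148b changed with a correction for the probe's base composition. The probe used had a GC content of 40% over 20 bases for miR-148a, 42.1% over 19 bases for miR-148b and 50% over 16 bases for miR-152, against medians of 50% and 17 bases over the tested miRNAs. After each array was corrected for a linear relation to probe GC content and length, the differences were -0.25 (95% confidence interval -0.59 to 0.09; limma adjusted p = 0.214) for miR-148a and -0.23 (95% confidence interval -0.45 to -0.01; limma adjusted p = 0.0920) for miR-148b. Both were below 0, and neither passed after adjustment. For miR-152 the corrected difference was 0.33 (95% confidence interval 0.09 to 0.57; limma adjusted p = 0.0465). This value is a description only, since miR-152 was detected on 1 Holstein-Friesian array and 4 Limousin arrays. After this correction 28.9% of the tested miRNAs were called, and 9.63% were called as higher in Limousin.

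The shorter probes of miR-148a and miR-148b did not pass either, and that of miR-152 was too dim to test. Among the 495 probes tested one by one, 40.2% were called and 13.7% were called as higher in Limousin. The 19-base probe of miR-148a differed by 0.10 (95% confidence interval -0.35 to 0.55; limma adjusted p = 0.731) and the 18-base probe of miR-148b by -0.01 (95% confidence interval -0.31 to 0.28; limma adjusted p = 0.944). The 15-base probe of miR-152 was detected on 0 of 8 arrays and was not tested. Its unscaled intensity ran from 0.0728 to 0.785 units in Holstein-Friesian and from 1.11 to 3.23 in Limousin.

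The last base of the probe moved the signal by different amounts in miR-148a and miR-148b. These are unlike bases at unlike lengths: base 20, a T, in miR-148a and base 19, a C, in miR-148b. The miR-148a probe ending in T read 1.13 to 1.19 times the one without it on the 8 arrays, and the log2 ratio was not parted by breed (two-sided exact permutation test, p = 0.257, n = 4 per breed). For miR-148b the longer probe read 3.27 to 3.72 times the shorter one (two-sided exact permutation test, p = 0.286, n = 4 per breed). These ratios mix the binding of each probe with the ends of the miRNA molecules, which the array does not separate.

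**Figure D4:**
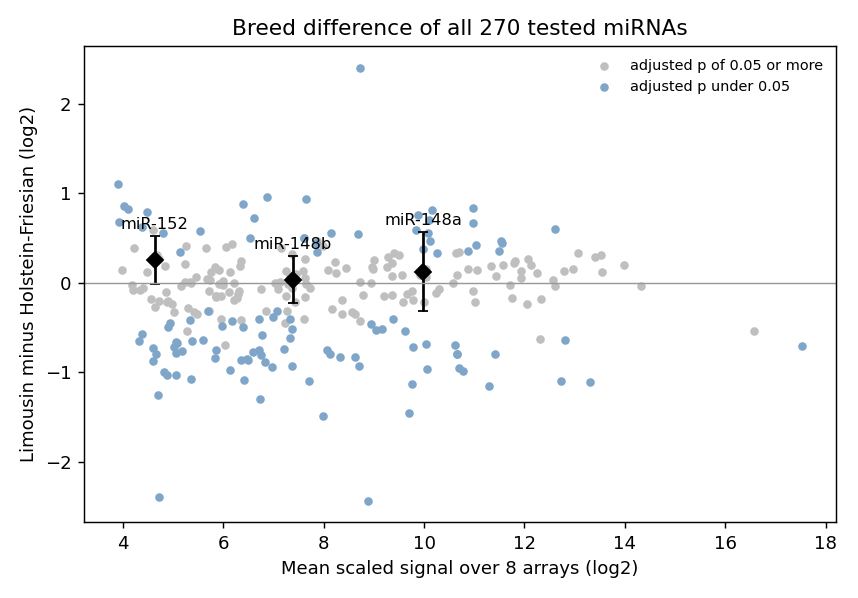
Difference Limousin minus Holstein-Friesian on the log2 scale (vertical axis) against mean scaled log2 level (horizontal axis) for the 270 tested miRNAs, with diamonds and 95% confidence intervals for the 3 members. All 3 diamonds lie slightly above 0, with intervals that reach or cross it, and miR-152 is near the dim end.

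Ranks within an array do not depend on a scaling factor, and were taken among the 270 tested miRNAs with 1 for the brightest. The rank of miR-148a was 84, 52, 72 and 64 in Holstein-Friesian and 70, 63, 71 and 58 in Limousin, a mean difference of -2.5 (two-sided exact permutation test, p = 0.714, n = 4 per breed). The rank of miR-148b was 147, 134, 144 and 155 against 130, 140, 137 and 132, a mean difference of -10.25 (two-sided exact permutation test, p = 0.0857, n = 4 per breed). Among the tested miRNAs 35.2% reached an exact p under 0.05, and 21.1% did so with a brighter rank in Limousin. With the mean of both probes the differences were -4 for miR-148a and -0.75 for miR-148b. Neither member was parted by breed.

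The rank of miR-152 was 256, 251, 251 and 259 in Holstein-Friesian and 229, 236, 239 and 235 in Limousin. Every Limousin animal placed it nearer the bright end than every Holstein-Friesian animal, with a mean difference of -19.5 places. For comparison, 21.1% of the tested miRNAs had a brighter rank in Limousin at a two-sided exact permutation p under 0.05. With the mean of the miR-152 probes the difference was -4.25 places, and among all miRNAs of the array -31.75. Since 3 of the 4 Holstein-Friesian ranks order a signal that was not detected, no test is drawn from them.

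Within an array, the members were also set against each other, which removes the scaling factor, over 3 pairs with Benjamini-Hochberg adjustment. The distance from miR-148a to miR-148b was 2.12, 2.86, 2.42 and 2.79 log2 units in Holstein-Friesian and 2.46, 2.78, 2.51 and 2.80 in Limousin. It differed by 0.09 between breeds (SE 0.19; two-sided exact permutation test, p = 0.686, adjusted p = 0.686, n = 4 per breed). The distance from miR-148a to miR-152 ran from 5.11 to 5.68 and from 5.08 to 5.48, and differed by -0.13 (SE 0.16). Both distances overlapped between breeds.

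The distance from miR-148b to miR-152 was 2.99, 2.82, 2.84 and 2.78 in Holstein-Friesian and 2.62, 2.60, 2.64 and 2.67 in Limousin. The mean difference was -0.22 (SE 0.05), and the ranges did not overlap. Among single tested miRNAs 36.7% showed no overlap, and the share among pairs of miRNAs was not counted. No test is drawn from either distance to miR-152, which was not detected on 3 of the 4 Holstein-Friesian arrays. The sign turned with no background correction, where the difference was 0.31. On the replicate 3 arrays, which were nearly equally bright in both breeds, the unscaled intensity was 162 and 160 for miR-148b, 869 and 913 for miR-148a, and 22.6 and 25.7 for miR-152, Holstein-Friesian first. These are single animals, with no test.

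The spread over the 8 arrays differed among members. The SD was 0.31 for miR-148a, 0.13 for miR-148b and 0.19 for miR-152 on the log2 scale, against a median of 0.28 over the tested miRNAs. These place miR-148a at the 53.7 percentile of spread, miR-152 at the 23.3 percentile and miR-148b at the 8.15 percentile.

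The miRNAs with the most similar profiles were different for each member, and none was another member. Likeness was the root mean square difference over the 8 arrays between profiles centred on their own mean, among 269 other miRNAs, and all profiles share the arrays and their scaling. Nearest to miR-148a were miR-32 at 0.08 log2 units, the epithelial miR-200a at 0.10 and miR-19a of the miR-17-92 cluster at 0.13, against a median of 0.38. Nearest to miR-148b were miR-128 at 0.06, miR-17-3p at 0.07 and miR-151-3p at 0.07, against a median of 0.28. Nearest to miR-152 were miR-107 at 0.05, let-7f at 0.08 and miR-25 at 0.09, against a median of 0.30. The miR-152 profile includes Holstein-Friesian arrays on which it was not detected. Of these 9 neighbours miR-25 alone was called between breeds, 0.33 higher in Limousin (limma adjusted p = 0.0403).

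Within the family, miR-148b and miR-152 were the closest pair, at 0.13 log2 units. The value was 0.21 for miR-148a with miR-152 and 0.24 for miR-148a with miR-148b. The SD of miR-148b by itself over the arrays was also 0.13. Seen from miR-148a, miR-152 ranked 28 and miR-148b ranked 47 among the 269 in likeness. Seen from miR-148b, miR-152 ranked 24, and seen from miR-152, miR-148b ranked 27.

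**Figure D5:**
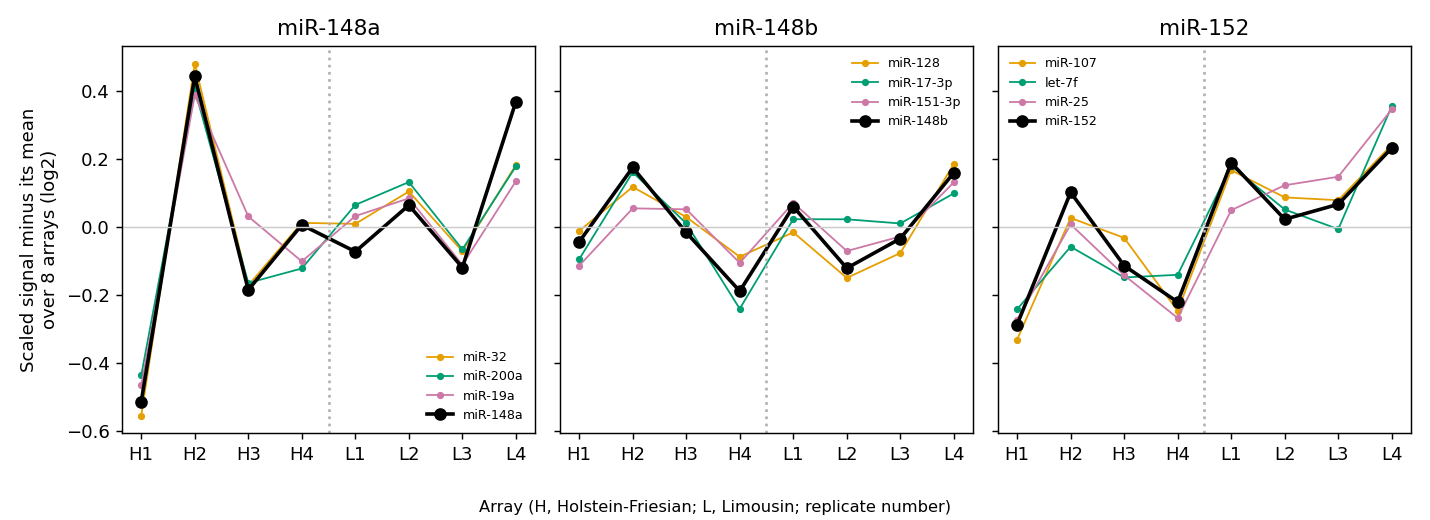
Log2 level of each member (black) and of its 3 most similar miRNAs (colours), each centred on its own mean over the 8 arrays (vertical axis), by array (horizontal axis, H for Holstein-Friesian and L for Limousin with the replicate number). miR-148a and its neighbours are lowest in Holstein-Friesian replicate 1 and high in Holstein-Friesian replicate 2, and miR-148b has the flattest profile of the 3 members.

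Epithelial miRNAs were set beside miR-148a because the gland holds other cell types beside epithelium. All 6 listed epithelial miRNAs, the 5 of the miR-200 family and miR-205, were detected on all 8 arrays. Centred on its own mean, miR-148a was -0.51, 0.44, -0.18 and 0.01 in Holstein-Friesian replicates 1 to 4 and -0.07, 0.07, -0.12 and 0.37 in Limousin replicates 1 to 4. The mean of the 6 epithelial miRNAs, centred likewise, was -0.14, 0.11, 0.03 and -0.08 in Holstein-Friesian and -0.01, 0.02, -0.03 and 0.10 in Limousin. Both were lowest in Holstein-Friesian replicate 1 and highest in Holstein-Friesian replicate 2, and the part of the epithelial share in the miR-148a level was not tested.

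Between breeds, 0 of the 6 epithelial miRNAs passed, against 41.9% of all tested miRNAs, and their median difference was 0.06. With the percentile over all probes 3 rose, and without scaling or with spike-in scaling 6 rose. With the authors' deposited values 1 rose, and without Holstein-Friesian replicate 2 the number was 2. With quantile normalization and with array weights 1 fell. The 2 with the smallest p were miR-200c at -0.17 (limma adjusted p = 0.227) and miR-205 at 0.22 (limma adjusted p = 0.248). Their summed level was 14.12 to 14.29 log2 units in Holstein-Friesian and 14.20 to 14.33 in Limousin. Of 5 leukocyte miRNAs 4 were tested and 2 were higher in Limousin, miR-155 by 0.95 (limma adjusted p = 0.00121) and miR-142-5p by 0.56 (limma adjusted p = 0.0223), against 13.7% called as higher among all tested miRNAs. The values of miR-223 and miR-150, which did not pass, were -0.15 and 0.02. The number that rose was 1 with GC content and length corrected and 1 with the replicate block. It was also 1 without Holstein-Friesian replicate 1 or 4 or Limousin replicate 1 or 4, and 4 without scaling. With normexp, with no background correction, and with GC content and length corrected plus the replicate block, 1 fell. The leukocyte miR-142-3p was detected on 0 arrays. The summed level of the 5 reached 10.59 at most in Holstein-Friesian and ran from 10.53 to 10.89 in Limousin, and its part in the miR-152 values was not tested. None of the 2 endothelial, 2 smooth muscle, 1 erythroid and 1 skeletal muscle miRNAs tested was called in the main setting. The 2 endothelial rose with the percentile over all probes and the deposited values. Without scaling or with spike-in scaling the 2 endothelial, 2 smooth muscle and 1 skeletal muscle miRNAs rose. With normexp or no background correction the erythroid and the skeletal muscle miRNA fell. With the mean of all probes, no detection filter, or GC content and length corrected (also with the replicate block), 1 smooth muscle miRNA fell. The liver miRNA miR-122, the neural miR-124a and miR-9-5p, the erythroid miR-144 and miR-486 and the skeletal muscle miR-206 were detected on 0 arrays. The skeletal muscle miR-133a was detected on 0 Holstein-Friesian and 1 Limousin array, and miR-133b on 1 and 2.

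Other miRNAs described as acting on the DNA methylation enzymes were set beside the family. Of a list of 10, all tested, 5 passed as higher in Limousin and 0 as lower, where 13.7% and 28.1% of all tested miRNAs did so. The median was 0.36 against -0.07 over all tested miRNAs. miR-101, described in human cells as a repressor of DNMT3A and EZH2, rose by 0.76 (1.69-fold, 95% confidence interval 1.36 to 2.10; limma adjusted p = 0.00363). miR-29b, a repressor of DNMT3A and DNMT3B in human cells, rose by 0.84 (1.78-fold, 95% confidence interval 1.34 to 2.38; limma adjusted p = 0.00741). The other 3, named after their values were seen, were miR-29a, miR-29c and miR-185. With GC content and length corrected, miR-101 and miR-185 rose, and miR-29b at 0.35 (limma adjusted p = 0.168), miR-29a and miR-29c did not pass. The number that rose was then 2, and 0 with the replicate block as well. It was 3 without Limousin replicate 1 or without Limousin replicate 4, 7 with the percentile over all probes or the authors' deposited values, and 10 without scaling.

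Among 20 other miRNAs abundant in milk, where miR-148a is usually counted, 3 rose, 4 fell and 13 did not pass, shares near the 13.7% higher and 28.1% lower of all tested miRNAs. miR-146b, an inhibitor of inflammatory signalling, rose by 0.94 (1.92-fold, 95% confidence interval 1.56 to 2.36; limma adjusted p = 0.00121). miR-30d fell by 0.54 log2 units (limma adjusted p = 0.00697). miR-21-5p and miR-25 also rose and miR-30a-5p, miR-181a and miR-191 also fell, and these 5 were named after their values were seen. With GC content and length corrected 2 rose and 0 fell, with miR-30d at -0.31 (limma adjusted p = 0.0651). With the authors' deposited values 9 rose and 0 fell, and without scaling 16 rose and 0 fell.

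Of 15 regulators of lipid and cholesterol genes, the group to which miR-148a is assigned in liver, 12 were tested. In Limousin 3 rose and 0 fell, with a median of 0.21, where 13.7% of all tested miRNAs were higher and 28.1% lower. miR-24-3p rose by 0.45 (limma adjusted p = 0.0110), miR-27b by 0.36 (limma adjusted p = 0.0208) and miR-185 by 0.34 (limma adjusted p = 0.0237), the last named after its value was seen. The number that rose was 1 without Holstein-Friesian replicate 4, Limousin replicate 1 or Limousin replicate 4, and 5 without Holstein-Friesian replicate 2. With GC content and length corrected 2 rose and 1 fell, with miR-27b at 0.22 (limma adjusted p = 0.0843), and 0 rose and 2 fell with the replicate block as well. The number that rose was 8 with the percentile over all probes, 6 with the authors' deposited values and 11 without scaling.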

How the data were processed

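MicroRNA was measured on 8 one-colour arrays, 4 per breed, with the breed read from each title. The deposited intensities come, per the file headers, from version 10.10.1.1 of Agilent Feature Extraction, which subtracts a spatially fitted background. They were not normalized between arrays. The authors' deposited table holds log2 values: Agilent's total gene signal on that scale less 1 constant for each array, to within 9.74e-06. Its column medians ran from -9.79 to -8.53. The 75th percentile of its columns ran from -0.0216 to -0.000965. The constant therefore lay close to the 75th percentile of each array's log2 total signals. The authors' reason for this constant is not given.

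Control and outlier spots were left out, spots of a probe were averaged, and values were scaled to the 75th percentile over probes detected on all arrays, floored at 1 and put on the log2 scale. The brightest probe stood for a miRNA. The 270 miRNAs were tested with limma 3.58.1 (R 4.3.3; lmFit, eBayes) for breed alone. The number of arrays limits the precision. Ranks, probe ratios and the distance of miR-148a and miR-148b were compared by exact permutation, and no such test is given for miR-152.

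The members and lists were chosen with earlier results of these data known. Those named were the 3 members, from each list the 2 tested miRNAs of smallest p, and the 3 miRNAs most like each member. Alternatives covered scaling, background, probe summary, filters, variance model, replicate block, GC content with length, and leaving out each array. List counts under each alternative were added after the data were seen.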

Additional observations from a re-analysis of the deposited data

How the results depend on the processing

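Each member's call changed under some setting, and for miR-152 these calls are a description. miR-148a was called with no scaling (0.98) and spike-in scaling (0.92), miR-148b with the percentile over all probes (0.36), no scaling (0.89) and spike-in scaling (0.83), and miR-152 with the percentile over all probes (0.59), quantile normalization (0.61), no scaling (1.11), spike-in scaling (1.05), the mean of its probes (0.40), the deposited table (0.53), array weights (0.34) and the GC content and length correction (0.33). Signs turned for miR-152 with normexp (-0.48) and no background correction (-0.45), for miR-148b with these (-0.16 and -0.14) and with the GC content and length correction (-0.23), and for miR-148a with that correction (-0.25). The 19-base miR-148a probe was called with no scaling (0.95) and spike-in scaling (0.89). The 18-base miR-148b probe was positive with the percentile over all probes (0.32), the median (0.067), quantile normalization (0.21), no scaling (0.84) and spike-in scaling (0.78), and was called with the last 2. With no background correction the miR-148a and miR-148b distances to miR-152 differed by 0.57 and 0.31. miR-152 has no value among miRNAs detected on all 8 arrays.

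Of 113 calls in the main setting, 32.7% were higher in Limousin. There were 175 calls with no scaling (98.9% higher), 176 with spike-in scaling (98.3%), 172 with normexp (15.1%) and 170 with no background correction (15.9%). The higher share was 77.6% with the percentile over all probes, 56.1% with quantile normalization and 74.3% in the deposited table. The median of all tested miRNAs was 0.73 with spike-in scaling, 0.26 with the percentile over all probes and 0.09 with quantile normalization.

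Leaving out each array gave -0.028 to 0.29 for miR-148a, -0.022 to 0.099 for miR-148b, 0.21 to 0.33 for miR-152, -0.054 to 0.28 for the 19-base miR-148a probe, -0.087 to 0.071 for the 18-base miR-148b probe and 71 to 142 calls, lowest without Limousin replicate 1. The correlation r of deviations between same-numbered animals ran from -0.45 to 0.32, which cannot establish whether the replicate numbers pair them. With the replicate block the differences were 0.12 for miR-148a (limma adjusted p = 0.640), 0.03 for miR-148b (limma adjusted p = 0.898) and 0.26 for miR-152 (limma adjusted p = 0.260), with 84 calls. With the replicate block and the GC content and length correction they were -0.25, -0.23 and 0.33 (limma adjusted p = 0.103 for miR-152), with 61 calls. The cause of each change was not tested. Signal over background limits miR-152.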
